A study of Mus musculus with 26 samples.

Results

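Hyperplastic epithelium of the mouse tongue was set against the stroma beneath it, across all genes of the deposited expression table. The 6 libraries, of 26 in the series, were chosen by their labels alone: hyperplasia epithelium 1, 2 and 3 and hyperplasia stroma 1, 2 and 3. All came from male mice of the inbred CBA strain in an oral carcinogenesis model driven by 4-NQO, a compound that damages DNA and forms lesions in tongue epithelium. Regions mapped by a pathologist were cut by laser from fixed, paraffin-embedded sections, as epithelium or as the stroma together with the muscle under it, and their RNA was sequenced. Epithelium 1 and stroma 1 were from mice aged 20 weeks and were sequenced in run 2. Epithelium 2 and stroma 2 (24 weeks) and epithelium 3 and stroma 3 (32 weeks) were sequenced in run 1. The study profiled both compartments at each histological step to define the genes that change and to follow immune cells. The other 20 libraries were normal mucosa (3 epithelium, 3 stroma), dysplasia (4 and 4) and tumor (3 and 3). The mice were aged 16 to 24 weeks in the normal groups, 16 to 32 weeks in the dysplasia groups and 28 to 32 weeks in the tumor groups, and each of these groups had libraries in both runs. The labels do not name the animal of a library. Ages differ between the libraries of each normal, hyperplasia and dysplasia group, so these came from different animals. Tumor libraries of a compartment aged 32 weeks may share an animal, and p-values would then be too small. Epithelium and stroma libraries of the same age may also share an animal, and the main fit did not pair them. Libraries of different histologies with the same age, such as 24 weeks in normal mucosa, hyperplasia and dysplasia, may share an animal too. The main fit treated all 26 libraries as independent. The labels also do not say whether the mice with normal mucosa received 4-NQO.

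The tongue surface is a stratified squamous epithelium. Basal keratinocytes anchored to the basement membrane divide, and their daughters move up, change keratins, tie themselves together with desmosomes and build a cornified envelope and a lipid barrier before they are shed. Beneath lie fibroblasts, which secrete collagen and other matrix, with vessels, nerves, resident immune cells and, in the tongue, skeletal muscle close to the surface. Hyperplasia is a thickening of the epithelium that precedes dysplasia in this model.

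Values are log2(TPM + 1), where TPM is a transcript's relative abundance after correction for its length. On this scale 0 means that a gene is listed at 0, and away from low values a difference of 1 is a 2-fold change. Differences are epithelium minus stroma, with their SE. Hyperplasia stroma 1 stood apart from the other 5 libraries: Lars2, March6 and D17H6S53E made up 86.0% of its TPM, against at most 9.55% in the rest, and 9382 genes were listed at 0 in it. Only 4683 genes reached a TPM of 1 there, against 11716 to 15521 in the other hyperplasia libraries. Results are therefore given with and without it. Epithelium 2 and stroma 2 carried the most transcripts that neither tissue should hold. Of 156 olfactory receptor genes, 73.1% reached a TPM of 1 in epithelium 2 and 92.3% in stroma 2, against 21.2% and 28.2% in epithelium 1 and 3 and 12.2% and 41.0% in stroma 1 and 3. Some defining markers fitted the compartment labels, and others did not separate the compartments. Krt13, the main differentiation keratin of oral mucosa, was at 13.75, 12.51 and 14.81 in epithelium and 5.99, 4.86 and 8.22 in stroma, and Col3a1, a fibrillar collagen, was at 3.80, 4.12 and 5.18 in epithelium and 6.79, 7.53 and 9.51 in stroma. Pecam1, an endothelial gene, overlapped, at 3.62, 5.25 and 6.13 in epithelium and 5.68, 5.51 and 6.08 in stroma. Pecam1, Krt5, Acta1, Ckm, Csf1r and Cd3e did not pass the limma test with or without stroma 1. In bulk tissue, fewer cells of a type and less RNA per cell cannot be told apart.

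With all 6 libraries, 1318 of 14952 genes tested were higher in epithelium (8.81%) and 164 were lower (1.1%) at an adjusted p of 0.05 or less. Without hyperplasia stroma 1, 463 of 14940 were higher (3.1%) and 487 lower (3.26%). Both fits called 457 genes higher (3.06%) and 120 lower (0.803%), and 0 genes were called in opposite directions. The 457 were 34.7% of the higher calls made with all 6 libraries and 98.7% of those made without stroma 1, whereas the 120 were 73.2% of the lower calls with all 6 and 24.6% of those without it. The balance between the directions moved with the scaling. Higher genes were 88.9% of all calls as deposited, 48.7% without stroma 1, 59.4% with the values rescaled after removal of the 3 dominant genes, 47.1% with each library centred on its median and 54.0% after quantile normalization. The median difference over all genes was 0.64 as deposited, -0.02 without stroma 1, and 0.03, -0.33 and -0.07 under those scalings in the same order, so a gene's difference should be read against the median of its own fit. Each of the 577 genes called in both fits differed at least 2-fold in both. With only the hyperplasia libraries of run 1 (2 a compartment), 348 genes were higher and 243 lower. That fit kept the libraries of the other histologies, from both runs, to estimate the spread. Run 2 held 1 hyperplasia library of each compartment, so it gives no test. Without epithelium 1 the counts were 574 and 50, without epithelium 3 336 and 40, without stroma 2 2333 and 200, and without stroma 3 3211 and 163.

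**Figure D1:**
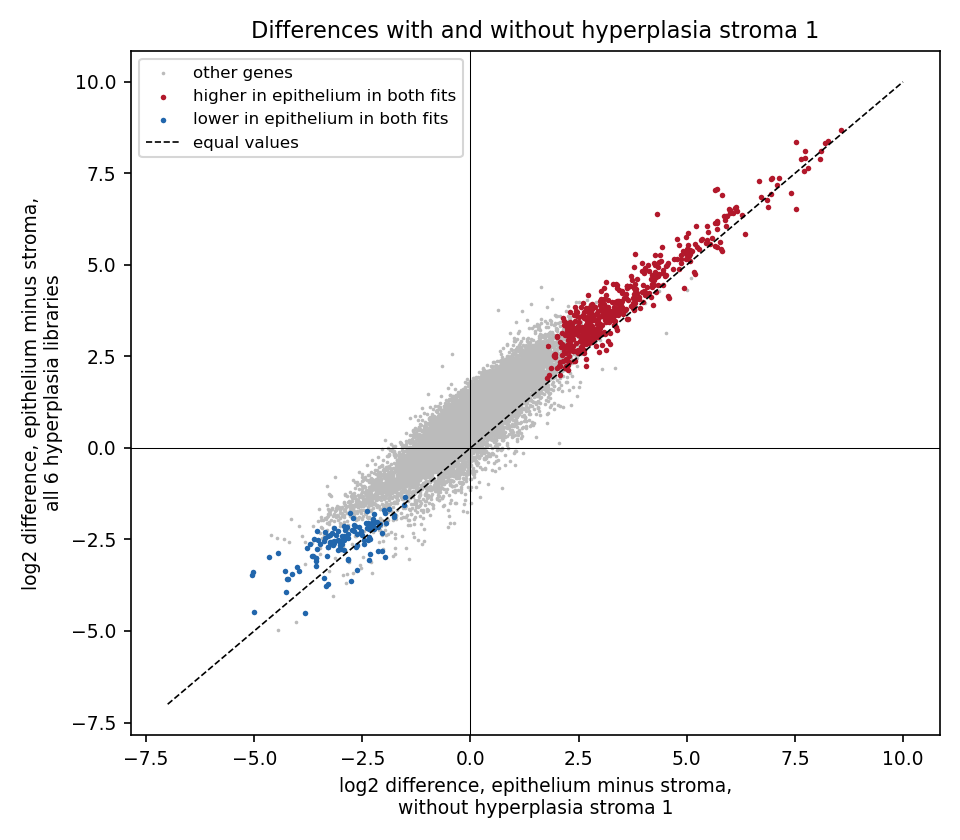
Difference (log2, epithelium minus stroma) of each gene in the fit without hyperplasia stroma 1 (horizontal axis) and in the fit of all 6 libraries (vertical axis), with the genes higher in epithelium in both fits in red, those lower in both in blue and the dashed line marking equal values. Most gray points lie above the line, as the medians of 0.64 with stroma 1 and -0.02 without it show, and no gene called in both fits changed direction.

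The leading genes higher in epithelium included genes of the cornified envelope, the lipid barrier and the kallikrein proteases. The 15 named here had the largest test statistics among the 454 genes called in both fits with no overlap between the compartments. Over all 14952 genes tested, 2079 (13.9%) were higher in epithelium with no overlap. Each of the 15 was past the threshold in 22 of 22 alternative analyses. These reuse the same libraries and include the fit without stroma 1 that the choice required, so the count is a description. Gjb2, which encodes the gap junction protein connexin 26 (chr14:57098600-57104702, minus strand, GRCm38), was at 9.04, 7.72 and 8.65 in epithelium and 0.45, 0.60 and 0.00 in stroma. Its difference was 8.12 ± 0.80 (adjusted p = 9.38e-08), and 8.10 without stroma 1. Defb14, a beta-defensin that kills microbes, was at 7.82, 6.50 and 8.33 in epithelium and listed at 0 in all 3 stroma libraries. Cnfn, a component of the cornified envelope, was at 9.72, 9.08 and 10.91 in epithelium and 0.00, 0.49 and 4.13 in stroma, a difference of 8.37 ± 1.13 (adjusted p = 1.31e-05). Stroma 3 held more Cnfn than the other stroma libraries but remained below every epithelium library. Serpinb12, an intracellular protease inhibitor, was at 9.67, 8.78 and 11.27 in epithelium and 1.51, 2.50 and 1.40 in stroma. Krt16, a keratin of wounded and hyperproliferative epithelium, reached 11.22, 10.10 and 11.23 in epithelium and 3.61, 1.50 and 4.50 in stroma (7.65 ± 0.97, adjusted p = 7.38e-06). Dsc1, a desmosomal cadherin of the upper layers, differed by 7.92, and Sbsn, which encodes the secreted protein suprabasin of differentiating keratinocytes, by 6.91. The others were Alox12b (6.84) and Elovl4 (6.41) of the lipid barrier, the kallikrein proteases Klk13 (6.48) and Klk8 (6.24), Il1f6 (6.76), which encodes interleukin-36 alpha, the retinol-binding protein gene Rbp2 (6.51), the exonuclease gene Trex2 (6.59) and Mal2 (5.33), a membrane traffic protein.

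**Figure D2:**
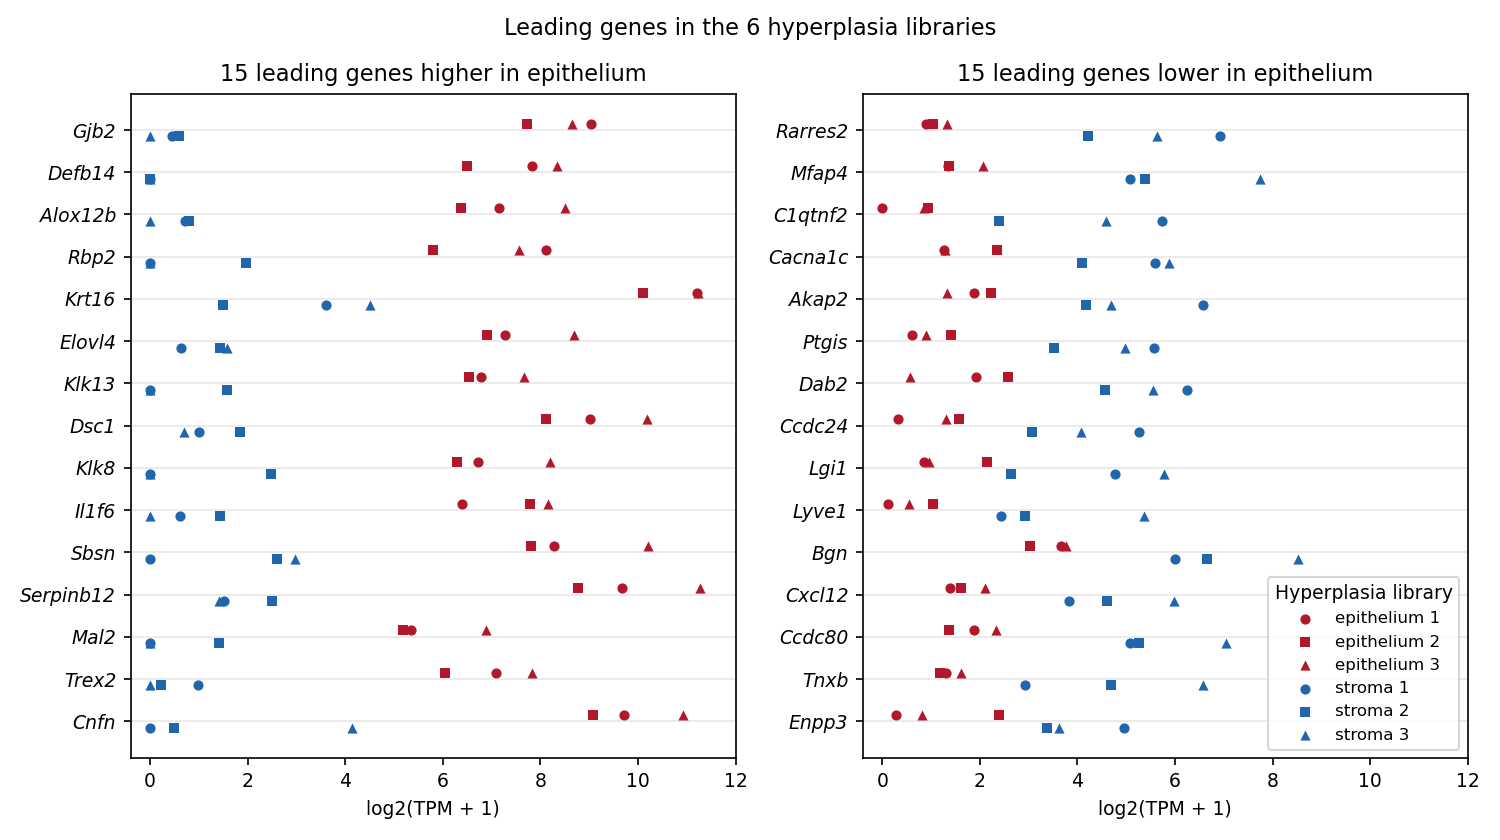
Values of the 15 leading genes per direction in each of the 6 hyperplasia libraries (horizontal axis, log2(TPM + 1)), with epithelium in red and stroma in blue and a marker shape for each replicate. Genes were chosen to have no overlap, so the gap between the colors is a description. Gjb2 lies at 7.72 or above in epithelium and at 0.60 or below in stroma, and Rarres2 at 1.32 or below in epithelium and 4.22 or above in stroma.

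Promoter sequences of 4 leading genes are shown because they come from both directions and differ in whether they hold TGANTCA. Here N is any base, so the pattern takes in the AP-1 (Fos and Jun) site TGAGTCA and looser forms. The match reads TGAATCA in Sbsn, TGATTCA in Serpinb12 and TGAGTCA in Tnxb. Each sequence is the 250 bases before the RefSeq transcription start (GRCm38.p6), written 5′ to 3′ on the gene's strand, with TGANTCA in capitals. Gjb2 (chr14:57104703-57104952, minus strand) has none. Sbsn (chr7:30751221-30751470, plus strand) has 1 that begins 119 bases before the start, Serpinb12 (chr1:106934199-106934448, plus strand) 1 at 45 bases, and Tnxb, which was lower in epithelium (chr17:34670285-34670534, plus strand), 1 at 55 bases. A second Serpinb12 promoter (chr1:106938707-106938956, plus strand) has none. Sbsn, Serpinb12 and Tnxb were the only leading genes with a match, which stood in 2 of 11 promoters found for the 15 higher genes and 1 of 12 for the 15 lower genes.
Gjb2: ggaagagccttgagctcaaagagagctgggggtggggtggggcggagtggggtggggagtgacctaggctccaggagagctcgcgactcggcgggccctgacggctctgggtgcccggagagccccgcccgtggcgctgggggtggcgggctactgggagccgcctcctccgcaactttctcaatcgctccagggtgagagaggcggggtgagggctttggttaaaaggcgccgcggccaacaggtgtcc
Sbsn: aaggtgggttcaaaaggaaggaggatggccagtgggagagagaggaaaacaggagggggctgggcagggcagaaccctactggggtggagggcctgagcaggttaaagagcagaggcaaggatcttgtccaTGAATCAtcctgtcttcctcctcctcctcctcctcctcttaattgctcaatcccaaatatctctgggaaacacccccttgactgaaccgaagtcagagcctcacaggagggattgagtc
Serpinb12: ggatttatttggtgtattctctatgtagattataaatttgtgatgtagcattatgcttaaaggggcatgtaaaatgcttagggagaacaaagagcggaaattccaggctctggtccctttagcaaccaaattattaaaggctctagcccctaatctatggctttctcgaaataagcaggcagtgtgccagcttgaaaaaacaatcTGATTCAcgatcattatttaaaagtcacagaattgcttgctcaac
Tnxb: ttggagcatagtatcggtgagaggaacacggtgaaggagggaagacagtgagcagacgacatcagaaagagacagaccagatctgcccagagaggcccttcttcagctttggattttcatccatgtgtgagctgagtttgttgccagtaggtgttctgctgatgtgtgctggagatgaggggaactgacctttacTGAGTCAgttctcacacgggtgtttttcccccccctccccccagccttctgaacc
RefSeq promoters were found for 334 of the 457 genes higher in both fits and for 80 of the 120 lower in both. The letters TGANTCA, which read the same on both strands, stood in 56 of 404 promoters of the higher genes (13.86%) and in 13 of 107 of the lower genes (12.15%). The share was 5.112% of 14750 promoters of all genes tested and 6.749% of the 32851 promoters in the table. TATAAA on either strand, which can overlap no TGANTCA, stood in 11.39% of promoters of the higher genes, 12.15% of the lower genes, 7.485% of all genes tested and 12.37% of all promoters in the table. The TGANTCA shares count every form of the pattern, so they are not shares of AP-1 sites. These are matches of letters in a window, with no test, and say nothing about binding.

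Genes of keratinocyte differentiation were higher in epithelium almost throughout. Of 31 tested members of an oral keratinocyte differentiation list, 29 were higher and 0 lower, and 27 were higher without stroma 1. Their median difference was 5.48 (5.03 without stroma 1), against 0.64 (-0.02) over all genes. Rptn, which encodes the envelope protein repetin, was at 9.60, 8.64 and 11.66 in epithelium and 1.70, 1.43 and 0.73 in stroma, and Sprr3, a small proline-rich envelope protein gene, differed by 8.39 ± 1.17. Lypd3, a surface protein of suprabasal cells, differed by 5.83, and Krt4, the partner of Krt13, by 7.39 ± 1.24 (adjusted p = 0.00014). The epidermal-type keratin Krt10 varied among epithelium libraries, at 3.16, 6.23 and 8.21, and Krt76, a keratin of hard palate and other oral surfaces, at 1.53, 6.28 and 10.83. Both were at 2.48 or below in stroma and differed by 5.04 and 5.51. Ivl, which encodes involucrin, was low in both compartments (0.64, 2.11 and 2.12 in epithelium, 0.00, 1.03 and 0.00 in stroma) and did not pass the test (adjusted p = 0.151). Summed over the list, epithelium held 12929 to 65917 TPM and stroma 138 to 785.

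Desmosomes, the rivets between keratinocytes, had 9 of 11 genes higher and 0 lower (8 without stroma 1), with a median of 4.11. Dsp, which links desmosomes to keratin, was at 9.76, 8.69 and 10.44 in epithelium and 3.58, 4.14 and 6.34 in stroma (4.94 ± 0.88, adjusted p = 0.000264). Dsc2 differed by 5.15 and Pkp1, a plakophilin, by 4.89. Dsg2, the desmoglein of simple epithelia, was at 2.85, 3.57 and 2.92 in epithelium and 1.20, 3.93 and 2.68 in stroma, with overlap between the groups (adjusted p = 0.616). Of 18 genes of adherens, tight and gap junctions, 10 were higher and 0 lower with all 6 libraries, 5 without stroma 1 and 5 without epithelium 3. Those called both with and without stroma 1 included Gjb2, Gjb6 (5.68), the E-cadherin gene Cdh1 (4.70) and the claudin gene Cldn4 (3.80).

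Proteases that cut the links between surface cells, and the inhibitors that hold them in check, were mostly higher. Of 19 kallikrein and protease inhibitor genes, 17 were higher and 0 lower (14 without stroma 1), with a median of 5.15. Spink5, an inhibitor of kallikreins, was at 7.52, 6.84 and 8.93 in epithelium and 0.97, 1.52 and 2.19 in stroma (6.21 ± 0.86, adjusted p = 1.42e-05). Slpi, a secreted inhibitor of leukocyte proteases, was at 8.87, 9.39 and 11.93 in epithelium and 1.88, 3.46 and 1.19 in stroma. Klk5, a kallikrein that activates others, was lower than these, at 1.81, 1.52 and 4.25 in epithelium and 0.00, 1.49 and 0.00 in stroma. Its call (2.03 ± 0.66, adjusted p = 0.0436) was lost without stroma 1 (adjusted p = 0.133).

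Antimicrobial proteins and alarm cytokines also lay on the epithelial side, with 14 of 16 genes higher and 0 lower (12 without stroma 1) and a median of 3.73. Without epithelium 3, 10 were higher. Il1f6 was at 6.38, 7.78 and 8.15 in epithelium and 0.61, 1.42 and 0.00 in stroma. Il1f8, which encodes interleukin-36 beta, differed by 4.13 and the beta-defensin Defb1 by 4.75. Il33, an alarm cytokine held in the nucleus, was at 6.90, 4.81 and 6.73 in epithelium and 0.75, 2.77 and 0.80 in stroma (4.71 ± 0.85, adjusted p = 0.000346). Il1b, the secreted cytokine made chiefly by myeloid cells, overlapped between the groups, at 1.60, 2.50 and 2.12 in epithelium and 0.00, 3.50 and 0.00 in stroma (adjusted p = 0.549). S100a8 and S100a9, the calprotectin subunits that neutrophils and stressed keratinocytes both make, were highest in epithelium 2, at 11.03 and 11.05. S100a8 was at 7.09 and 7.10 in epithelium 1 and 3 and at 2.65, 2.99 and 0.00 in stroma (6.52 ± 1.47, adjusted p = 0.00359). The neutrophil receptor genes Cxcr2 (3.13, 4.80 and 3.07 in epithelium, 0.48, 5.41 and 3.68 in stroma) and Csf3r (1.72, 1.62 and 0.78 in epithelium, 0.00, 2.65 and 0.79 in stroma) overlapped between the groups, and their part in the S100a8 difference was not tested.

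Lipid barrier genes, which make and process the ceramides of the surface layers, numbered 16 higher and 0 lower of 19 (14 without stroma 1, 10 without epithelium 3), with a median of 3.15. Cers3, the ceramide synthase for very long chains, was at 5.97, 5.66 and 7.02 in epithelium and 0.88, 2.02 and 1.88 in stroma (4.62 ± 0.71, adjusted p = 3.74e-05). Cyp4f39, a fatty acid hydroxylase of the same pathway, differed by 5.30. Elovl4, which elongates those fatty acids, was at 7.27, 6.91 and 8.69 in epithelium and 0.64, 1.43 and 1.56 in stroma.

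The stress keratin and wound response list had 8 of 10 genes higher and 0 lower (7 without stroma 1), with a median of 4.26. Krt17 was at 10.11, 7.82 and 9.75 in epithelium and 2.40, 1.34 and 5.49 in stroma (6.15 ± 0.96, adjusted p = 5.04e-05), and Serpinb2, an inhibitor of plasminogen activators, differed by 4.83. Among 12 EGFR family receptors and ligands, 6 were higher and 0 lower, with 3 higher without stroma 1 and 2 without epithelium 3. The ligand genes Hbegf (3.68), Ereg (3.30) and Tgfa (2.87) and the receptor gene Erbb3 (3.21) led the list. Tgfa lost its call without stroma 1 (adjusted p = 0.051), and Egfr itself was at 5.59, 4.50 and 5.82 in epithelium and 2.28, 3.46 and 4.70 in stroma (adjusted p = 0.106).

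Of 19 basal keratinocyte genes tested, 3 were higher and 0 lower, and 1 was higher without stroma 1, beside 8.81% of all genes called higher with all 6 libraries and 3.10% without stroma 1. The median was 1.61, or 0.99 without stroma 1. Pitx1, a homeobox gene of oral epithelium, was at 7.76, 6.05 and 7.83 in epithelium and 0.40, 3.58 and 4.52 in stroma (4.38 ± 0.87, adjusted p = 0.00101) and held without stroma 1. Sox2 (2.56) and Tfap2a (2.39) did not (adjusted p = 0.255 and 0.282). Krt5, the basal keratin, was at 10.59, 8.12 and 9.51 in epithelium and 6.19, 6.27 and 9.01 in stroma, so stroma 3 exceeded epithelium 2 (2.25 ± 1.04, adjusted p = 0.157). Trp63, the master regulator of squamous basal cells, was at 7.13, 5.66 and 6.91 in epithelium and 2.11, 4.03 and 5.96 in stroma (adjusted p = 0.0901). The 19 basal genes together summed to 954 to 3542 TPM in epithelium and 390 to 1800 TPM in stroma, and the part of keratinocyte transcripts in the stroma libraries in these results was not tested.

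The hard keratins of filiform papillae, the hair-like projections of the tongue surface, were highest in epithelium 3. Of 8 genes, 3 were higher and 0 lower with and without stroma 1, and 0 were higher without epithelium 3. Krt36 was at 2.05, 7.08 and 10.32 in epithelium and 0.91, 0.73 and 0.95 in stroma. Krt84 was at 4.50, 6.56 and 9.63 in epithelium and 1.12, 1.78 and 2.28 in stroma, and Krt32 differed by 3.86. Foxn1, a regulator of hair keratins, was at 2.43, 2.52 and 4.48 in epithelium and 0.00, 1.50 and 1.58 in stroma (adjusted p = 0.0581).

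**Figure D3:**
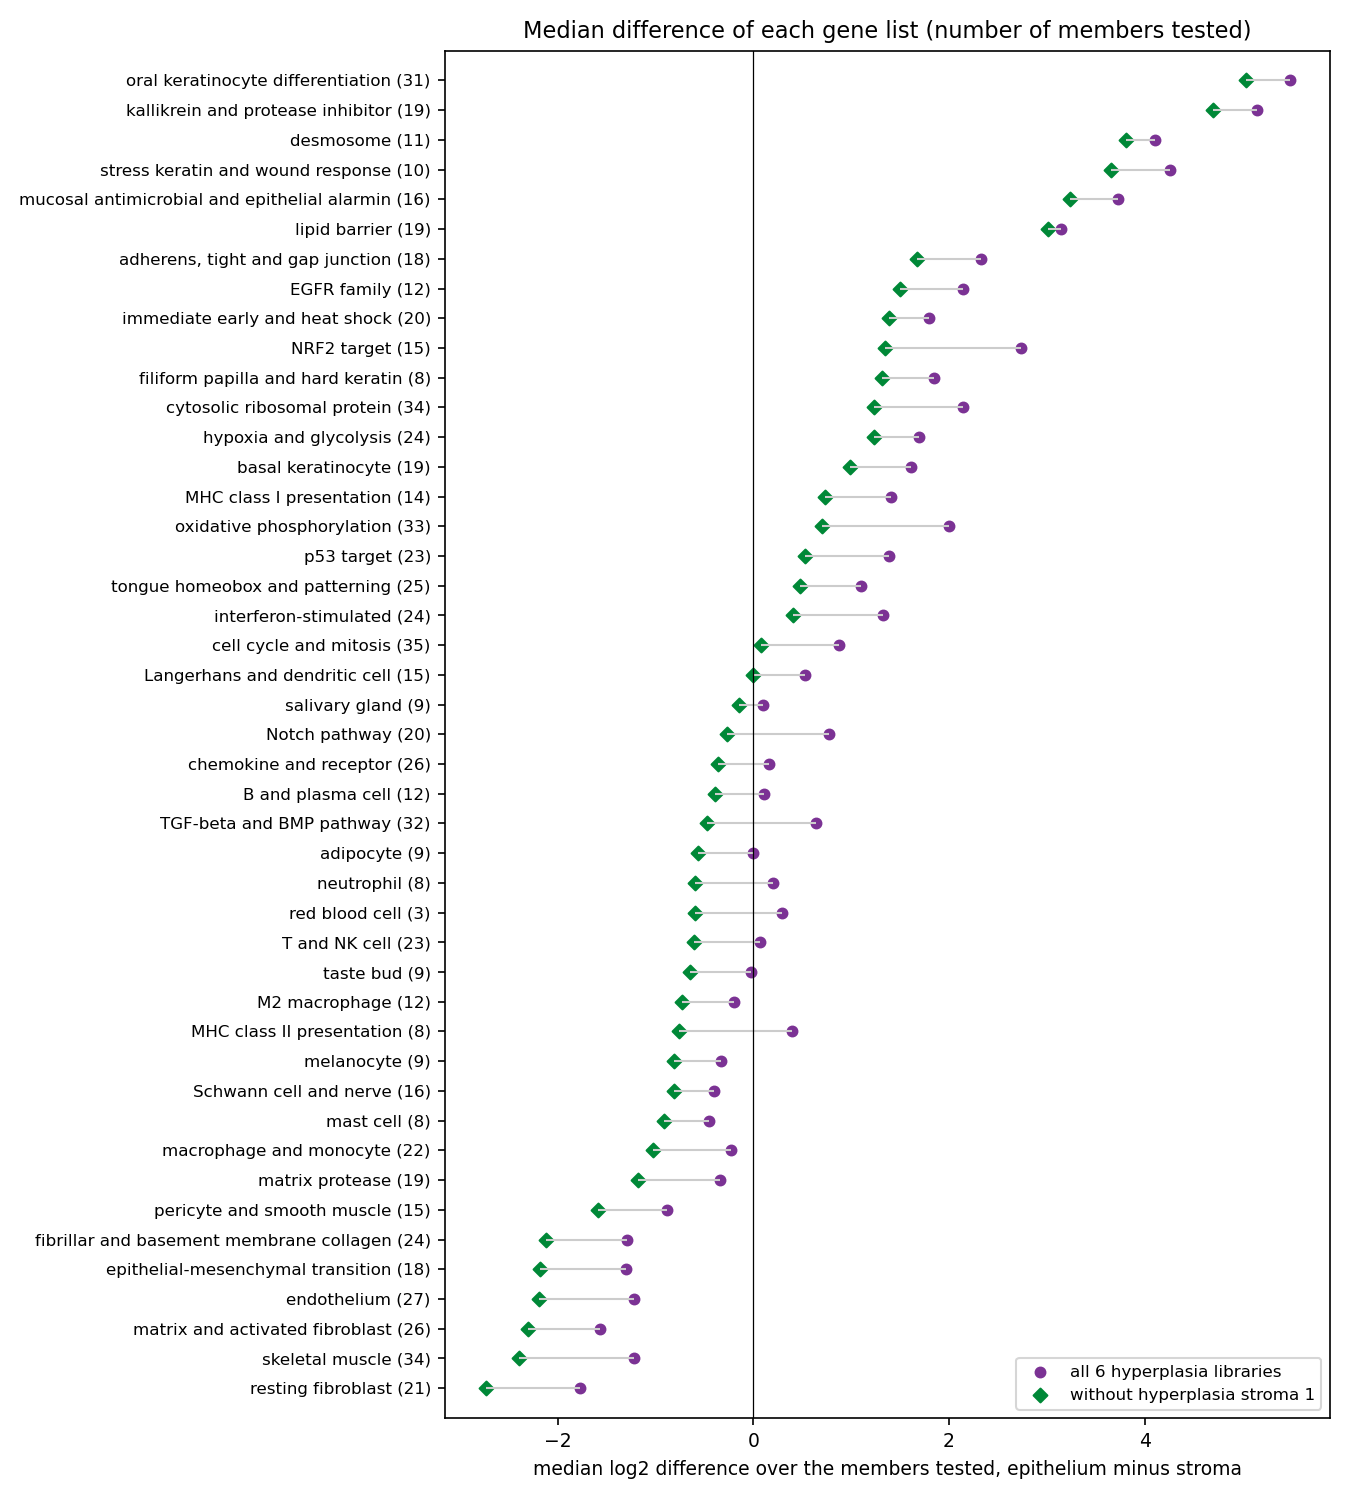
Median difference (log2, epithelium minus stroma) of each list of genes over its tested members, with all 6 libraries (purple circles) and without hyperplasia stroma 1 (green diamonds), ordered by the value without that library; the number tested stands after each name. Oral keratinocyte differentiation is at 5.48 and 5.03 and resting fibroblast at -1.78 and -2.74, and the diamond of each list drawn lies to the left of its circle.

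Several response pathways had members called higher in epithelium, with counts that fell when single libraries were left out. Higher calls over all genes fell too, from 8.81% to 3.1% without stroma 1. They were 574 of 14916 genes without epithelium 1 and 336 of 14880 without epithelium 3. Small counts below should be read against these shares. NRF2 targets, which counter oxidative and chemical stress, had 8 of 15 higher and 0 lower, 4 without stroma 1 and 3 without epithelium 3. Me1, which supplies NADPH, was at 6.24, 5.52 and 7.84 in epithelium and 0.00, 2.69 and 2.38 in stroma (4.85 ± 0.77, adjusted p = 5.8e-05), and Hmox1, heme oxygenase, differed by 4.11. Nqo1 (2.74, adjusted p = 0.0441) was at 5.45 in both epithelium 2 and stroma 3 and lost its call without stroma 1 (adjusted p = 0.401). Of 23 p53 targets, 5 were higher and 0 lower, with 3 left without stroma 1, namely Perp (4.89), which is also a desmosome component, Sfn (4.78), a 14-3-3 protein of stratified epithelium, and the cell cycle inhibitor gene Cdkn1a (3.11). Among 24 hypoxia and glycolysis genes, 8 were higher and 0 lower, but 2 without stroma 1, 2 without epithelium 1 and 1 without epithelium 3. Those 2 without stroma 1 were Egln3 (3.94), an oxygen sensor, and Hk1 (3.03), a hexokinase. Of 25 homeobox and patterning genes of the tongue, 6 were higher and 0 lower, but only Pitx1 without stroma 1. Of 20 immediate early and heat shock genes, 7 were higher and 0 lower with all 6 libraries and 3 without stroma 1. Hspb1, a small heat shock protein of keratinocytes, was at 10.02, 8.03 and 10.84 in epithelium and 5.43, 3.91 and 7.01 in stroma (4.18 ± 0.90, adjusted p = 0.00256), and the chaperone gene Dnajb1 differed by 3.39. Myc, the proliferation regulator, passed only without stroma 1 (2.14, adjusted p = 0.0816, with all 6; 3.03, adjusted p = 0.0209, without).

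The leading genes lower in epithelium included those of fibroblasts, matrix and vessels. Over all 14952 genes tested, 352 (2.35%) were lower in epithelium with no overlap. Of the 15 named from 107 that met the same rule, Rarres2, which encodes the secreted attractant chemerin (chr6:48569696-48572789, minus strand), was at 0.89, 1.05 and 1.32 in epithelium and 6.92, 4.22 and 5.62 in stroma. It fell by 4.50 ± 0.67 on the log2 scale (adjusted p = 2.77e-05). Mfap4, a microfibril protein, was at 1.35, 1.36 and 2.06 in epithelium and 5.07, 5.38 and 7.75 in stroma, a difference of -4.47 ± 0.79 (adjusted p = 0.00023). Bgn, which encodes the proteoglycan biglycan, was at 3.66, 3.03 and 3.77 in epithelium and 6.01, 6.66 and 8.52 in stroma. Tnxb, which encodes the matrix protein tenascin-X, was at 1.31, 1.19 and 1.62 in epithelium and 2.93, 4.70 and 6.57 in stroma. Cxcl12, a chemokine of stromal cells, was at 1.38, 1.61 and 2.11 in epithelium and 3.82, 4.61 and 5.97 in stroma, a difference of -3.10 ± 0.65 (adjusted p = 0.00179). Lyve1, the hyaluronan receptor of lymphatic endothelium and some macrophages, was at 0.11, 1.04 and 0.54 in epithelium and 2.43, 2.92 and 5.37 in stroma. The others were the secreted proteins Ccdc80 (-3.94), C1qtnf2 (-3.64) and Lgi1 (-3.07), the prostacyclin synthase gene Ptgis (-3.71), the endocytic adaptor gene Dab2 (-3.76), the calcium channel gene Cacna1c (-3.54), the kinase anchor gene Akap2 (-3.33), the ectoenzyme gene Enpp3 (-2.82) and Ccdc24 (-3.06). Rarres2, Mfap4, Dab2 and Ccdc80 were past the threshold in 22 of 22 alternative analyses and the other 11 in 18 to 20. These counts too come from the libraries in which the genes were chosen.

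Lists of fibroblast and matrix genes had more calls without stroma 1 than with it. Lower calls over all genes rose in the same step, from 1.1% to 3.26%, so the rise is not particular to these lists. Of 24 collagen genes, 7 were lower and 0 higher, against 12 lower without stroma 1, 4 without epithelium 1 and 3 without epithelium 3. Col1a1, the main fibrillar collagen chain, was at 3.43, 2.90 and 3.69 in epithelium and 5.59, 6.44 and 8.06 in stroma (-3.35 ± 0.78, adjusted p = 0.00509). Col3a1 (-3.58), Col1a2 (-3.44) and Col14a1 (-3.23) fell with it. Collagen genes that keratinocytes themselves make had positive differences that did not pass the test: Col17a1, of hemidesmosomes, at 2.15 (adjusted p = 0.124) and Col7a1, of anchoring fibrils, at 1.59 (adjusted p = 0.276). Of 26 matrix and activated fibroblast genes, 7 were lower and 0 higher (14 without stroma 1, 2 without epithelium 3 and 2 without stroma 3). Sparc, a matrix glycoprotein gene, was at 3.89, 3.71 and 4.02 in epithelium and 6.31, 6.47 and 7.67 in stroma (-2.94 ± 0.69, adjusted p = 0.00545). Pdgfrb (-2.52) and Postn (-2.37) followed. Of 21 resting fibroblast genes, 5 were lower and 0 higher (12 without stroma 1, 2 without epithelium 3 and 3 without stroma 3). C3, which encodes the central complement protein, was at 2.35, 1.49 and 0.90 in epithelium and 1.72, 6.56 and 6.60 in stroma, where stroma 1 lay inside the epithelial range (-3.38 with all 6, -5.03 without stroma 1). Pdgfra, the fibroblast receptor gene, was listed at 0 in stroma 1 and was at 4.97 and 6.13 in stroma 2 and 3, against 0.62, 2.15 and 1.98 in epithelium. It passed only without stroma 1 (-2.12, adjusted p = 0.113, with all 6; -3.97, adjusted p = 0.00048, without). An epithelial-mesenchymal transition list, made mostly of mesenchymal genes, had 3 of 18 lower and 0 higher (10 without stroma 1, 1 without epithelium 3). The lower genes were Sparc, the transcription factor gene Zeb1 (-2.74) and Prrx1 (-2.40), while Vim, the mesenchymal filament gene, passed only without stroma 1 (-3.02, adjusted p = 0.0153).

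Endothelial genes were called lower chiefly without stroma 1. Of 27 tested, 4 were lower and 0 higher with all 6 libraries, and 18 were lower without stroma 1. The median was -1.22 and -2.19. Without epithelium 1 or without epithelium 3, 2 were lower. Aqp1, a water channel of vessels, was at 3.36, 2.67 and 3.69 in epithelium and 4.88, 6.06 and 7.66 in stroma (-2.96 ± 0.73, adjusted p = 0.00744). Vwf, a clotting protein of endothelium, differed by -2.03 and Plvap, of fenestrated vessels, by -2.20. Cdh5, the junctional cadherin of endothelium, was at 1.84, 1.39 and 1.07 in epithelium and 0.60, 3.72 and 4.61 in stroma and passed only without stroma 1 (-2.68, adjusted p = 0.00908). Of 15 pericyte and smooth muscle genes, 2 were lower and 0 higher, Pdgfrb and the filament gene Des (-2.94), and 6 were lower without stroma 1. Without epithelium 3 or without stroma 3 the count was 0.

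Skeletal muscle genes had large differences that did not pass the test. Of 34, 1 was lower (Myoz2, a protein of the sarcomere's Z line, -2.37) and 0 were higher. Myoz2 lost its call without stroma 1 (-1.96, adjusted p = 0.0896), where 3 other members were lower. The count of lower genes was 8, 14 and 13 under the 3 scalings named above, in the same order. Acta1, skeletal actin, was at 5.92, 1.68 and 3.29 in epithelium and 5.65, 7.20 and 7.58 in stroma (-3.18 ± 1.20, adjusted p = 0.0842). Ckm, muscle creatine kinase, was at 5.66, 1.76 and 1.89 in epithelium and 0.00, 6.39 and 6.67 in stroma. Epithelium 1 thus held muscle transcripts, and stroma 1 held few of several of them. The 34 genes summed to 586, 194 and 219 TPM in epithelium and 186, 1516 and 2084 TPM in stroma, and the part of muscle in the other differences was not tested. Of 16 Schwann cell and nerve genes, the myelin gene Pmp22 was lower (-2.64, adjusted p = 0.0107) and Erbb3, which keratinocytes share, was higher.

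**Figure D4:**
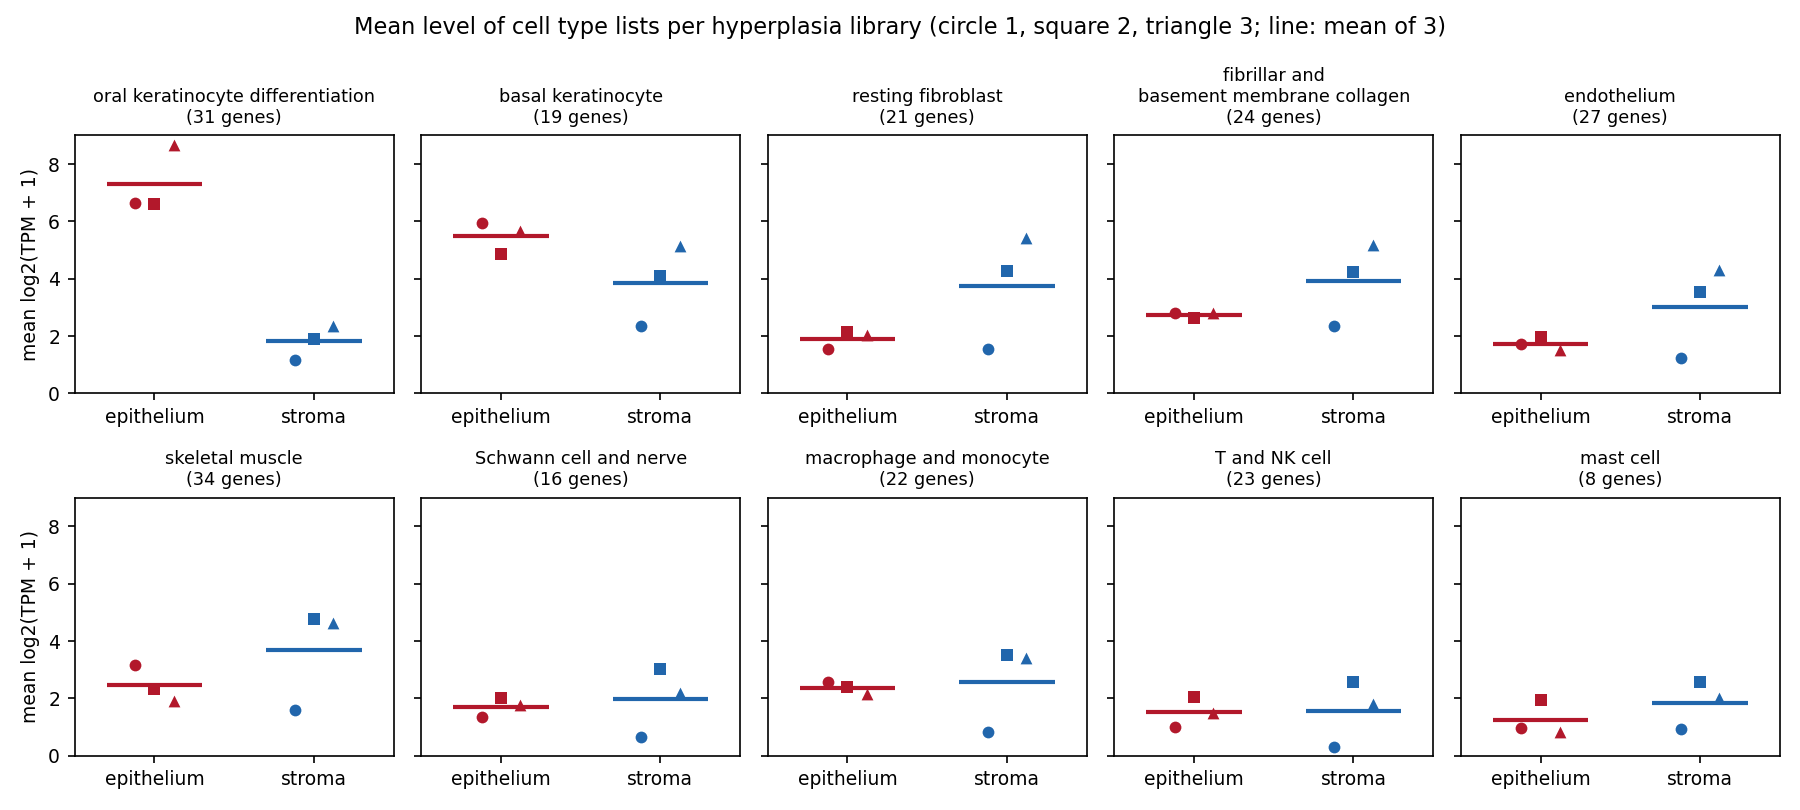
Mean log2(TPM + 1) over the tested members of 10 lists (one panel each, vertical axis) in each hyperplasia library, epithelium in red and stroma in blue, with a line at the mean of 3 libraries. Differentiation genes do not overlap between the compartments, whereas stroma 1 (blue circle) lies at or below the epithelium libraries in the endothelium, muscle and macrophage panels and epithelium 1 (red circle) is the highest epithelium library for muscle.

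The markers that the study stained in tissue gave no call between the compartments. Of 7 tested, 0 passed in either direction with limma, with or without stroma 1, and of those 7 genes the pan-leukocyte gene Ptprc had the largest difference with all 6 libraries, and Cd163 without stroma 1. Ptprc was at 4.34, 4.06 and 3.44 in epithelium and 4.38, 5.23 and 5.93 in stroma (-1.23 ± 0.69, adjusted p = 0.242), with no overlap. Cd163, the scavenger receptor gene used to mark M2 macrophages, was at 0.37, 1.39 and 0.47 in epithelium and 0.00, 2.27 and 3.06 in stroma. Its difference was -1.03 ± 0.62 (adjusted p = 0.281), and -1.87 (adjusted p = 0.0549) without stroma 1. Cd3e (0.45), Cd4 (0.10), Cd8a (-0.29), the macrophage gene Adgre1 (-0.28) and the M1 marker Nos2 (0.02) were all listed at 0 in stroma 1 and overlapped between the groups. Foxp3, of regulatory T cells, did not reach the minimum level for testing. Under the scalings, 1 (rescaled), 2 (median centring) and 2 (quantile) of the 7 were lower.

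Tissue macrophage genes gave 1 call in each direction of 22. C1qa, which encodes a complement subunit made by macrophages, was at 3.01, 2.26 and 0.93 in epithelium and 5.11, 4.56 and 3.67 in stroma (-2.38 ± 0.77, adjusted p = 0.0433), and lost its call without stroma 1 (adjusted p = 0.154). Without stroma 1, 3 genes were lower: C1qc (-2.68), Mertk (-2.19), which clears dead cells, and the mannose receptor gene Mrc1 (-2.71). In the M2 macrophage list of 12, Lyve1 was lower and Arg1, which encodes arginase, was higher, and without stroma 1 the list had 3 lower and 1 higher. Arg1 was at 6.13, 6.36 and 7.89 in epithelium and 0.00, 2.24 and 0.43 in stroma (5.90 ± 1.00, adjusted p = 0.000144), opposite in sign to Mrc1, F13a1 and Cd163. F13a1 was at -2.01 (adjusted p = 0.106) with all 6 libraries and passed without stroma 1 (-3.26, adjusted p = 0.00814). The 22 macrophage genes summed to 333, 137 and 224 TPM in epithelium and 77, 267 and 276 TPM in stroma.

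Langerhans cells, the dendritic cells of squamous epithelium, are marked by Cd207, which encodes langerin. It was at 3.00, 2.76 and 3.58 in epithelium and 0.00, 1.80 and 0.00 in stroma (2.51 ± 0.57, adjusted p = 0.00375), and 2.27 without stroma 1 (adjusted p = 0.0258). It was the only one of 15 Langerhans and dendritic cell genes higher in both fits, since Epcam (2.42), which keratinocytes can also express, lost its call without stroma 1. In that fit 1 other member of the list was called lower. The list's median was 0.53 with all 6 libraries and -0.006 without stroma 1. Of 23 T and NK cell genes, 0 passed with all 6 libraries, and only Trdc, the constant region gene of the delta T cell receptor chain, was lower without stroma 1 (-2.77, adjusted p = 0.0126). It was at 0.61, 1.04 and 0.37 in epithelium and 0.00, 1.59 and 5.21 in stroma, so stroma 3 alone stood apart. Of 12 B and plasma cell genes, Sdc1 (3.66) and Xbp1 (2.11), both also expressed by keratinocytes, were higher. Sdc1 kept its call without stroma 1, and Xbp1 lost it (1.61, adjusted p = 0.140). Cd79a, the defining B cell gene, was at or below 0.68 in every hyperplasia library. Of 8 mast cell genes, Cpa3, a mast cell protease gene, was lower (-2.51, adjusted p = 0.0288) through stroma 1. It was at 0.52, 1.53 and 0.14 in epithelium and 5.66, 2.03 and 2.01 in stroma, and its adjusted p was 0.328 without that library. S100a8 and S100a9 were the only called genes among 8 of the neutrophil list. Of 9 adipocyte genes, Cidea, a lipid droplet protein gene, was higher (2.93, adjusted p = 0.00514). The salivary gland (9 genes), melanocyte (9), red blood cell (3) and taste bud (9) lists had 0 called in either direction with limma, with or without stroma 1.

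Chemokine, antigen presentation and interferon genes were read against 8.81% of all genes called higher and 1.10% called lower with all 6 libraries. Of 26 chemokine and receptor genes, Cxcl12 alone passed with all 6 libraries, joined without stroma 1 by Ackr1 (-3.18, adjusted p = 0.0101), a chemokine scavenger of venules, which was at or below 0.35 in epithelium and at 0.00, 3.82 and 3.36 in stroma. The list's balance turned to 2 higher and 1 lower without epithelium 2, and likewise without stroma 2. In 14 genes of MHC class I presentation, only Calr, the chaperone calreticulin, was higher (2.96, adjusted p = 0.0152), and its call was lost without stroma 1 (adjusted p = 0.135). B2m, the light chain of class I, was at 10.13, 7.81 and 9.78 in epithelium and 5.75, 7.74 and 8.46 in stroma (adjusted p = 0.123). Of 8 genes of MHC class II presentation 0 passed, with H2-Ab1 at 6.35, 5.13 and 7.05 in epithelium and 0.00, 6.38 and 7.73 in stroma. Of 24 interferon-stimulated genes, 4 were higher and 0 lower, with 1 left without stroma 1 and 0 higher after rescaling. That gene, Oasl1, was at 3.59, 2.26 and 4.57 in epithelium and 0.00, 2.31 and 0.00 in stroma (2.70 ± 0.66, adjusted p = 0.00766).

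Cell cycle genes gave no call between hyperplastic epithelium and its stroma. Of 35 tested, 0 passed with or without stroma 1, with medians of 0.88 and 0.08. The difference was positive for 34 with all 6 libraries and 19 without stroma 1, beside 71.0% and 49.0% of all genes. Plk1, the leading member, was at 3.86, 2.09 and 2.87 in epithelium and 0.00, 1.92 and 0.30 in stroma. It had no overlap but did not pass (2.20, adjusted p = 0.0686, with all 6; 1.80, adjusted p = 0.249, without stroma 1). Mki67, the proliferation marker, was at 5.21, 3.47 and 4.46 in epithelium and 2.34, 2.93 and 5.24 in stroma (0.88 ± 0.83, adjusted p = 0.511), so stroma 3 exceeded every epithelium library. Over all genes, 8.81% were called higher and 1.1% lower with all 6 libraries, and 3.1% and 3.26% without stroma 1. The counts that follow should be read against these shares. Cytosolic ribosomal protein genes had 7 of 34 higher and 0 lower with all 6 libraries, and 0 without stroma 1, without epithelium 1 or without epithelium 3. Without stroma 3 the number was 31, in a fit that called 3211 of 14713 genes higher. Oxidative phosphorylation had 6 of 33 higher and 0 lower, against 0 higher and 1 lower (the muscle subunit gene Cox6a2, -3.45) without stroma 1. It had 0 higher without epithelium 1 or 3, and 23 higher without stroma 3. In the Notch pathway (20 genes) Nrarp was higher (2.58) with all 6 libraries, and Mfng was lower (-2.50) and Nrarp not called without stroma 1. In the TGF-beta and BMP pathway (32 genes) Ltbp4, which stores TGF-beta in the matrix, was lower (-2.63 ± 0.71, adjusted p = 0.0164), and without stroma 3 the balance turned to 3 higher and 1 lower. In the matrix protease list (19 genes) Plau, urokinase, was higher (2.02, adjusted p = 0.0488), but without stroma 1 Ctsk, which encodes a collagen-cleaving cathepsin, was lower (-2.86) and Plau missed the threshold (adjusted p = 0.095).

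The compartment difference in hyperplasia was also set against that in normal mucosa and in the mean of the other 3 histologies, in the same fit. These contrasts share the hyperplasia libraries. Of 14952 genes, 0 (0%) differed from normal mucosa by limma and 0 (0%) from the mean of the other histologies, with smallest adjusted p-values of 0.861 and 0.517. At an unadjusted p under 0.05 there were 612 and 1074, and 380 and 450 without stroma 1. Without stroma 2, 9 genes differed from the other histologies. Gjb2 had the smallest p against normal mucosa, with a difference between compartments larger by 4.61 ± 1.13 in hyperplasia (adjusted p = 0.861). S100a9 (7.42 ± 2.07) and Mrln (2.56 ± 0.71), which encodes a muscle micropeptide, came next. Against the other histologies, Ccdc24 (-3.28 ± 0.70), Gjb2 (4.13 ± 0.91) and Tmem107 (3.34 ± 0.86), a cilium protein gene, had the smallest p. So no gene's compartment difference is shown to be particular to hyperplasia.

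The leading genes had the same direction elsewhere with few exceptions, Lgi1 in normal mucosa (0.03) and Ccdc24 in dysplasia and tumor. For the 15 higher genes the median difference was 3.27 in normal mucosa, 6.84 in hyperplasia, 5.51 in dysplasia and 2.71 in tumor. For the 15 lower genes it was -2.78, -3.54, -2.92 and -1.87. Gjb2 differed by 3.51 in normal mucosa, 8.12 in hyperplasia, 5.99 in dysplasia and 2.48 in tumor. Ccdc24 was at -0.03, -3.06, 0.23 and 0.47 in that order. These genes were chosen for their difference in hyperplasia, so larger values there are a description. Across all genes the same fit called 95 higher and 157 lower in normal mucosa, 434 and 585 in dysplasia, and 0 and 0 in tumor.

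**Figure D5:**
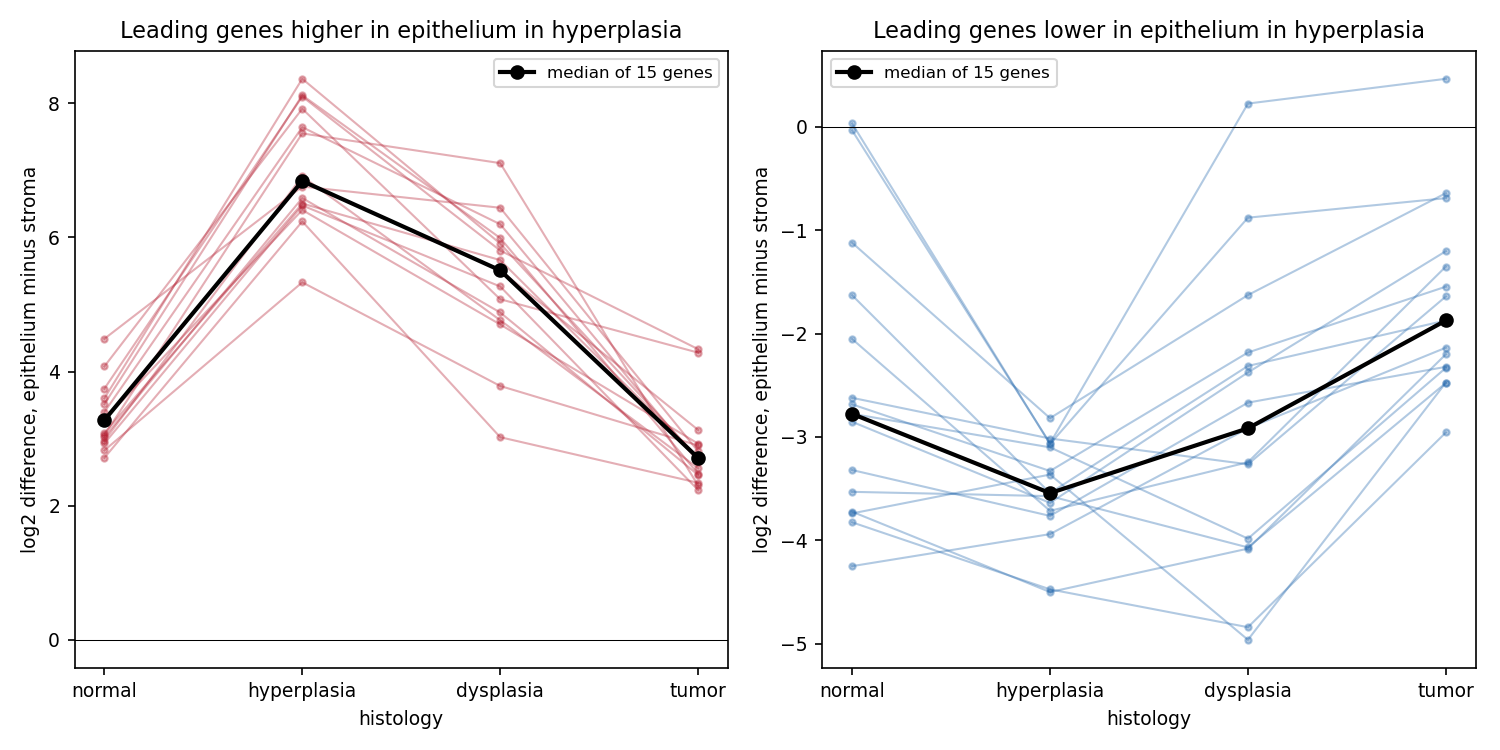
Difference (log2, epithelium minus stroma, vertical axis) of the 15 leading genes per direction in normal mucosa, hyperplasia, dysplasia and tumor, 1 thin line a gene and the median in black. The genes were picked in hyperplasia, where the medians are 6.84 and -3.54, against 2.71 and -1.87 in tumor.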

How the data were processed

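The 6 hyperplasia libraries were taken from a table of 26 RNA-seq libraries of laser-cut tongue. The deposited values are log2(TPM + 1), as made by the authors; the scale and the pseudocount of 1 were read from the values, since no header states them. Per the submitters' processing notes, the build was GRCm38.p6, and the tools were Salmon 0.9.1, HTSeq 0.10.0, STAR 2.5.1b, Trimmomatic 0.36, SAMtools 1.6, FastQC 0.11.5 and bcl2fastq 2.20, whose roles and order are not given. TPM keeps no depth, so the depth is unknown, no counting interval could be given, and differences of weakly expressed genes are understated on this scale. The table pairs mouse genes with human orthologs in 18676 rows. For 626 of 17023 gene identifiers several rows exist, and only the 16397 rows whose identifier occurs once were kept, which leaves out close paralogs such as Krt14 and Krt6a. It held 0 columns of samples outside the 26 libraries, and 0 pairs of libraries were identical.

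A linear model of 8 groups and sequencing run was fitted to all 26 libraries with limma 3.58.1 in R 4.3.3, using empirical Bayes moderation with a trend on mean level. Genes needed to reach a TPM of 1 in 2 or more of the 6 hyperplasia libraries (14952 genes, and 14940 when the fit was repeated without hyperplasia stroma 1). The Benjamini-Hochberg adjustment ran over all genes tested, and the threshold was 0.05. An exact permutation test of 3 against 3 libraries cannot go below 0.1 and was not used. Prior degrees of freedom were 17.6, beside 17 residual ones, so SEs rest in part on a spread shared between genes and may understate the error of genes that vary much between libraries. The fit was tested on simulated data.

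The 46 lists (1013 entries, 842 tested) and the comparison were chosen with earlier results of these data known, and many list members were picked as known markers of a compartment, so their counts are descriptions. Named genes were the 15 per direction with the largest statistics among genes called and at least 2-fold different in both fits with no overlap, the 4 leading members of each list in its main direction with up to 2 called the other way, the immunostained markers, the 3 leading genes of each contrast between histologies and the 3 dominant genes. Others were named after their values were seen. A few genes that the rule names are not reported here. Promoters are from RefSeq, and gene coordinates from the GENCODE annotation of GRCm38. Of 14952 identifiers, 14947 were found in the gene name table, 14827 of them under the same symbol. The pairing of libraries by replicate number was checked only as an alternative.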

Additional observations from a re-analysis of the deposited data

How the results depend on the processing

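With all 6 libraries, 1318 genes were higher and 164 lower in epithelium. The counts were 548 and 663 without the 3 stroma libraries richest in the dominant genes (hyperplasia stroma 1, normal stroma 1 and dysplasia stroma 2), 543 and 334 with library weights, 346 and 16 from the hyperplasia libraries alone with run as a term, and 273 and 8 without that term. Lower genes numbered 630 after rescaling, 1371 after median centring and 1201 after quantile normalization, with the higher count within 1.5 times of 1318. Leaving out 1 hyperplasia library at a time gave 336 to 3211 higher and 40 to 487 lower. Chosen after seeing the data, keeping only the hyperplasia libraries of run 1 gave 348 higher (243 lower). Leaving out both epithelium 2 and stroma 2, chosen likewise, gave 2622 higher (194 lower). Without hyperplasia stroma 1 (463 higher, 487 lower), library weights gave 301 and 312, quantile normalization 1279 and 1013, and median centring 1258 higher. Lower genes were 275 with a pseudocount of 0.1 and 1616 after rescaling. From the hyperplasia libraries alone they were 230 with run as a term and 536 without that term. They were 243 with only the hyperplasia libraries of run 1, which is the same fit as leaving out epithelium 1 as well. Leaving out a further library gave 140 to 668 higher and 15 to 722 lower. The cause of each shift was not tested.

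Replicate numbers were not established as pairs. Deviations of same-numbered libraries correlated at -0.063, 0.442 and 0.318, and epithelium 1 was closest to stroma 3 (0.269). A replicate block in the hyperplasia libraries gave 331 higher and 18 lower, or 692 and 200 without stroma 1, and differences within 13 pairs over all histologies gave 2756 and 285.

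Of contrasts between histologies, 1 gene differed from normal mucosa and 7 from the other histologies without epithelium 2 and stroma 2, and leaving out 1 library gave 0 to 9 against the other histologies. The net balance (higher minus lower) of some lists turned sign. For the Notch pathway (-1 to 4 when 1 library was left out) it was -1 without stroma 1, without the 3 stroma libraries and after median centring. For oxidative phosphorylation (-1 to 23) it was -1 without stroma 1, without the 3 stroma libraries and with only the hyperplasia libraries of run 1. For interferon-stimulated and for adipocyte genes it was -1 after median centring. For chemokines it was 1 without epithelium 2, 1 without stroma 2 and 2 without both. For matrix proteases it was -1 without stroma 1, -2 without the 3 stroma libraries, -1 with weights, -3 after rescaling and -5 after either other scaling. For the TGF-beta and BMP pathway it was 2 without stroma 3. Of 4244 values for 195 named genes under the alternatives, 3617 kept their side of the threshold, 470 lost the call, 157 gained it and 0 reversed a call. The 3617 include changes of sign in genes called in neither fit, such as H2-Ab1 (1.47 with all 6 libraries, -0.99 without stroma 1).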

Other observations

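Further genes outside the lists described above, chosen after their values were seen, were called in both fits. Higher in epithelium were Fam25c, at 10.08, 9.45 and 12.68 in epithelium and 2.80, 0.00 and 4.43 in stroma, Krtdap, a keratinocyte differentiation peptide gene, at 11.58, 10.86 and 13.05 in epithelium and 5.24, 3.96 and 5.46 in stroma, and Asprv1, a protease that processes filaggrin in skin, at 9.08, 7.87 and 11.19 in epithelium and 2.34, 1.39 and 0.73 in stroma. The regulators of keratinocyte differentiation Zfp750 (4.76 ± 0.76, adjusted p = 6.61e-05) and Hopx (5.48 ± 0.90) and the kinase gene Ripk4 (4.26 ± 0.75) were higher too. So were Ada, which encodes adenosine deaminase, at 8.38, 7.68 and 11.55 in epithelium and 1.90, 2.49 and 1.12 in stroma, the glycerol channel gene Aqp3 (4.80), the sodium channel gene Scnn1a (4.36), and Il22ra1 (2.95 ± 0.55, adjusted p = 0.000499), which encodes a receptor chain for interleukin-22.

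On the other side, Thbs4, a thrombospondin of tendon and muscle matrix, was at 1.26, 1.60 and 2.21 in epithelium and 2.35, 5.28 and 7.89 in stroma (-3.48 ± 0.99, adjusted p = 0.0221). Aebp1 (-3.26 ± 0.74) and Serpinf1 (adjusted p = 0.00952), both secreted by fibroblasts, were lower, as was Nr2f2 (-2.75 ± 0.68, adjusted p = 0.0082), a nuclear receptor gene of veins and mesenchyme. Sele, the endothelial adhesion molecule E-selectin, was at 0.00, 0.91 and 0.00 in epithelium and 1.28, 2.75 and 3.00 in stroma (-2.04 ± 0.55, adjusted p = 0.0163). Dmd, the dystrophin gene, was at 1.37, 2.97 and 1.47 in epithelium and 3.45, 4.23 and 5.66 in stroma (-2.51 ± 0.68, adjusted p = 0.0159).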
